A study of Bos taurus with 8 samples.

Results

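In the 8 pools of day 8 bovine blastocysts, 119 of the 8297 listed genes were well counted everywhere, and they are described here gene by gene and pool by pool. RNA was sequenced from 4 pools that came from oocytes matured with lycopene, a carotenoid antioxidant, and from 4 pools that came from oocytes matured without supplementation (control). All pools were *Bos taurus* embryos produced in vitro from oocytes of slaughterhouse ovaries matured in serum-free medium, and each pool held 10 blastocysts. Lycopene was given while the oocyte matured, and the embryos were sampled at day 8.

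The 119 genes were selected on their counts. A gene was kept when its count, recovered from the deposited normalized counts, was 50 or more in all 8 pools. This held for 125 genes, and 6 mitochondrially encoded identifiers were then dropped. The remaining 119 genes were 1.43% of the listed genes and 8.15% of the 1461 genes that had a count in every pool. Because the level chose them, their high level is a description and was not tested. The rule did not compare the groups.

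A blastocyst consists of an inner cell mass, from which the fetus arises, and the trophectoderm, an outer epithelium that later forms the placenta. Both compartments share a set of housekeeping transcripts for protein synthesis, energy metabolism and the cytoskeleton, and such transcripts usually lead the counts of an embryo. The library kit captured transcript ends next to the poly-A tail, so a count stands for a transcript end and does not grow with transcript length. The sources used here list the genes by Ensembl identifier and do not pair them with symbols: 0 of the 8297 identifiers matched the gene table. The roles of the 119 genes, the markers of trophectoderm, inner cell mass, hypoblast, cumulus cells and sperm, and the name of core blastocyst genes could therefore not be checked, and the genes are called well counted genes. Only 4 are named by identifier. The others are given by rank, from 1 for the highest mean normalized count over the 8 pools to 119 for the lowest.

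Total counts ran from 349465 to 1570448 in the control pools and from 882413 to 3302689 in the lycopene pools. The shallowest pool was control replicate 4 and the deepest was lycopene replicate 3. Depth therefore differed with the group, and the values below are set beside it. Nothing in the labels says whether the replicates were separate runs of embryo production.

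The median count of the 119 genes was 1357, 452, 491 and 353 in control replicates 1 to 4 and 863, 1011, 2819 and 1288 in lycopene replicates 1 to 4. Only control replicate 1 among the control pools reached the range of the lycopene pools. Within a pool the genes spanned several orders of magnitude, from 50 to 62514 in control replicate 4 and from 59 to 497891 in lycopene replicate 3. Between 1 and 17 of the 119 genes had fewer than 100 counts in a pool, the lowest number in lycopene replicate 3 and the highest in control replicate 4.

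**Figure D1:**
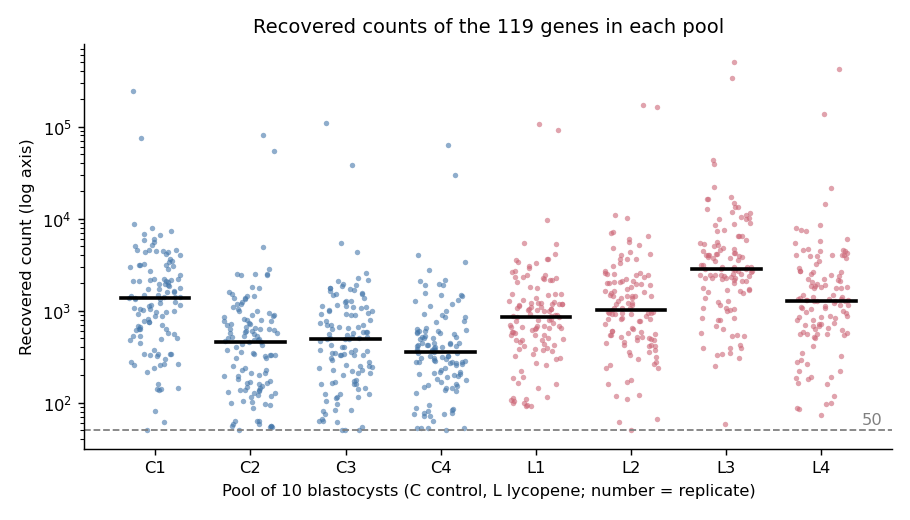
Each point is the recovered count of 1 of the 119 genes (log axis) in 1 pool of 10 blastocysts, with control pools (C) in blue and lycopene pools (L) in red. Black lines are the medians, from 353 in control replicate 4 to 2819 in lycopene replicate 3, and the dashed line is the limit of 50 counts, which every point meets.

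The shallow control pools set who belonged. A count of 50 or more was reached in all 4 lycopene pools by 454 genes, and in all 4 control pools by 141 genes, without the 6 dropped identifiers. A further 154 genes reached 50 counts in 7 of the 8 pools, and the pool in which they fell short was control replicate 4 for 69 of them, control replicate 3 for 33 and control replicate 2 for 31. No gene was kept out by lycopene replicate 3 alone. In the pool with the fewest well counted genes, control replicate 4, the 119 genes were 16.6% of the 716 genes with 50 or more counts, and in lycopene replicate 3 they were 3.60% of 3306. The 4 genes just inside the limit had a lowest count of 50, with medians over the pools of 449.5, 188, 112.5 and 102. The 3 just outside had lowest counts of 49, 48 and 47, with medians of 318.5, 451 and 144.

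The 119 genes held a large share of all counts. Their share was 34.8%, 40.7%, 43.0% and 44.9% in control replicates 1 to 4 and 38.5%, 43.0%, 42.3% and 50.3% in lycopene replicates 1 to 4. The groups overlapped, with means of 40.8% ± 4.40 (SD, n = 4) in control and 43.5% ± 4.95 (SD, n = 4) in lycopene, and the difference of 2.65 percentage points was smaller than the SD between pools. The Wilson 95% interval of a pool's share was at most ± 0.165 percentage points, and it covers counting error only. No p-value is given for the share, since it sums over genes chosen with earlier results known. The difference was 0.38 points without lycopene replicate 4, 0.62 without control replicate 1 and 4.33 without lycopene replicate 1.

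A pair of genes made up most of this share. The genes at rank 1 and rank 2 together held between 20.5% (control replicate 1) and 34.9% (lycopene replicate 4) of a pool's counts. The other 117 genes held a narrow band, between 14.3% in control replicate 1 and 18.6% in control replicate 4, with 14.5% and 15.8% in control replicates 2 and 3 and 16.1%, 15.9%, 17.0% and 15.4% in lycopene replicates 1 to 4. Each gene's share was averaged over the pools. Of the summed mean shares of the 119 genes, the 2 highest made up 62.2%, the top 10 72.1% and the top 20 78.9%. The mean normalized count was 209579 at rank 1 and 9629 at rank 3, against a median of 1142 over the 119 genes.

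**Figure D2:**
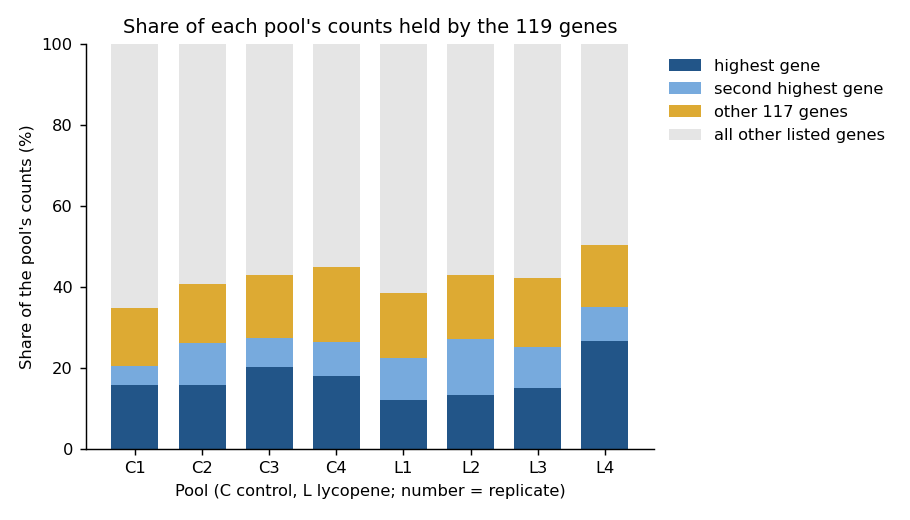
Bars show the share of each pool's counts (%) held by the highest gene, the second highest gene, the other 117 well counted genes and all other listed genes, for control (C) and lycopene (L) pools. The band of the 117 genes stays between 14.3% and 18.6%, while the highest gene alone ranges from 11.9% to 26.5%.

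ENSBTAG00000043567, at rank 1, had counts of 245848, 81428, 108418 and 62514 in control replicates 1 to 4 and of 105279, 162204, 497891 and 425995 in lycopene replicates 1 to 4. As a share of the pool's counts this was 15.7%, 15.7%, 20.2% and 17.9% in control and 11.9%, 13.2%, 15.1% and 26.5% in lycopene. The lycopene pools thus held both the lowest and the highest share, and lycopene replicate 4 was the highest of the 8. Its normalized count was 274584 ± 141806 (SD, n = 4) in control and 144574 ± 83020 in lycopene. The log2 fold change for ENSBTAG00000043567, lycopene minus control on the log2(normalized count + 1) scale, was -0.90 (standard error 0.22) with limma and did not pass (adjusted p = 0.549). That standard error is drawn toward a variance trend across genes and does not measure the spread between pools alone. With eBayes without trend it was 1.41 (adjusted p = 0.832). Over the alternatives the adjusted p of this gene ran from 1.7e-06, with genes of a mean of at least 10, to 0.856. With the trend it passed both thresholds without control replicate 1 (log2 fold change -1.30) and without lycopene replicate 4 (-1.24). In limma the log2 fold change of ENSBTAG00000043567 changed with the scaling of the pools. It was -0.12 with equal totals and -0.096 with size factors from the well counted genes, but -2.47 with equal upper quartiles. With edgeR the direction of ENSBTAG00000043567 was opposite, at 0.13.

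The gene at rank 2 exceeded ENSBTAG00000043567 in lycopene replicate 2 and in no other pool. The ratio of rank 1 to rank 2, which needs no size factor, was 3.25, 1.51, 2.87 and 2.12 in control replicates 1 to 4 and 1.15, 0.955, 1.49 and 3.14 in lycopene replicates 1 to 4. Replicates of both groups thus stood near 1.5 and near 3, and the groups overlapped. The share of the rank 2 gene was 7.68% ± 2.35 (SD, n = 4) in control and 10.7% ± 2.26 in lycopene, also with overlap.

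Identifiers that remain after the rule are not all outside the numbers of those it drops. The run of identifier numbers spanned by the 6 dropped mitochondrial identifiers holds 23 listed genes, and 6 of the 119 fall in it, at ranks 1, 2, 8, 10, 14 and 52. Whether these 6 are encoded in the mitochondrion is not shown by the sources used here. Without them, the other 113 genes held 13.6% to 16.8% of a pool's counts, and the difference between the groups was 0.37 percentage points.

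Whether the well counted genes moved with lycopene was asked in a fit over all 6777 genes whose mean normalized count reached 1. A gene was called when its Benjamini-Hochberg-adjusted p was 0.05 or less and its log2 fold change was 1 or more in size. limma called 0 of the 119 genes, against a background of 0.0% of all tested genes. The smallest adjusted p among the 119 was 0.549. At an unadjusted p under 0.05, 5 of the 119 (4.20%) were lower in lycopene, where 0.989% of all tested genes were, and 0 were higher, where 2.08% were. With size factors from the 119 genes limma again called 0 (background 0.0%, smallest adjusted p 0.742), with 2 genes lower (1.68%, background 0.339%) and 6 higher (5.04%, background 3.0%) at an unadjusted p under 0.05. edgeR on the recovered counts also called 0 of the 119 (background 0.0%). At an unadjusted p under 0.05 it had 6 higher (5.04%, background 18.8%) and 1 lower (0.84%, background 9.62%). DESeq2 on the recovered counts called 1 of the 118 that had an adjusted p (0.847%), where it called 12.0% of all genes with an adjusted p. All these backgrounds include genes that did not have to reach 50 counts in every pool. The part of that limit in the shares was not tested.

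The direction of the whole set rested on the scaling of the pools. With the authors' size factors, 101 of the 119 genes were lower in lycopene and 18 higher, with a median log2 fold change of -0.82, a range from -3.25 to 1.34 and a median standard error of 1.06. The median over all tested genes was 0.52 in the same fit. With size factors from the 119 genes, which centre them by construction, 62 were lower and 57 higher, with a median of -0.023 against 0.94 over all tested genes. The median of the 119 was -0.051 with equal totals, 0.050 with edgeR's TMM scaling, -0.99 with DESeq2 and -2.39 with equal upper quartiles. The median of the 119 minus that of all tested genes was below 0 in each of these 6 fits, namely -1.34 and -0.96 for the 2 sets of size factors just named, -0.99 with equal totals, -0.77 with edgeR, -0.61 with DESeq2 and -2.02 with equal upper quartiles. The gap was -0.15 in DESeq2 with the replicate number as a block. Both DESeq2 gaps were taken over all 8297 listed genes, where limma without the filter on low values had -1.10. In limma with the filter the gap was -2.13 without control replicate 1 and -0.88 without lycopene replicate 3. Only 1461 of the tested genes had a count in every pool, and 3 of the 4 control pools had fewer counts than any lycopene pool. The part of detection in this gap was not tested. Over the 1461 genes the median was -0.22. Without control replicate 1 the median of the 119 was -1.25.

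**Figure D3:**
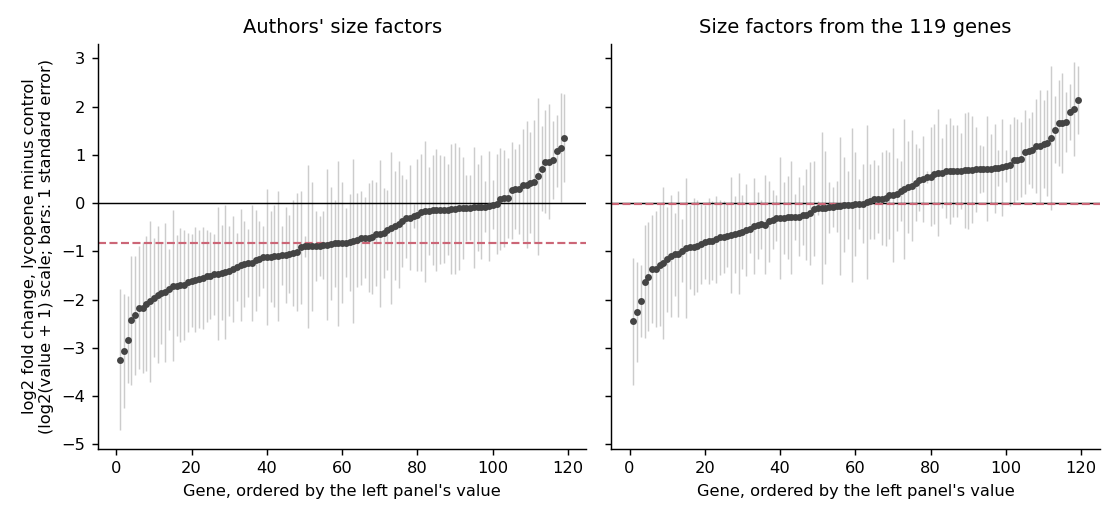
Points are the limma log2 fold changes (lycopene minus control, log2(value + 1) scale) of the 119 genes with bars of 1 standard error, in the order of the left panel. The dashed line, the median, lies at -0.82 with the authors' size factors (left) and at -0.023 with size factors computed from the 119 genes (right).

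The ratio of the authors' size factor to that of the 119 genes differed between pools. It was 1.81, 0.799, 0.515 and 0.442 in control replicates 1 to 4 and 1.02, 1.17, 2.27 and 1.13 in lycopene replicates 1 to 4. The ratio mostly rose with depth, from the shallowest pool, control replicate 4, to the deepest, lycopene replicate 3. Control replicate 3 had a lower ratio than the shallower control replicate 2. Lycopene replicate 4 had a lower ratio than the shallower control replicate 1 and lycopene replicate 2. Whether depth or the group went with the ratio cannot be told apart here. The limit of 50 counts corresponded to 21.3, 136, 198 and 273 normalized counts in control replicates 1 to 4 and to 56.5, 36.5, 7.60 and 31.1 in lycopene replicates 1 to 4. A gene could therefore belong with a far lower normalized count in lycopene replicate 3 than in control replicate 4. By lowest count, a value the rule itself used, the median log2 fold change with the authors' size factors was -0.08 for 1216 genes with 1 to 9 and -0.43 for 120 genes with 10 to 49, both outside the limit. It was -0.19 for the 37 genes with 50 to 99, -0.72 for 26 genes with 100 to 199, -1.10 for 33 genes with 200 to 499 and -0.89 for 23 genes with 500 or more. The part of the limit in the direction of the fold changes was not tested.

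Of the 119 genes, 8 (6.72%) had all 4 control pools above all 4 lycopene pools in normalized counts, where 0.856% of all tested genes did, and 0 had the lycopene pools above, where 1.65% did. With size factors from the 119 genes, 5 (4.20%, background 0.413%) had the control pools above and 4 (3.36%, background 1.96%) had the lycopene pools above. The genes at ranks 91 and 92 had the control pools above under both scalings. The share of all tested genes that did so under both together was not counted, so no background stands beside them. In normalized counts rank 91 was nearly level, with 128 in control replicate 1 and 124 in lycopene replicate 1. At rank 92 the nearest pools were the same, with 349 and 250. These numbers of genes use the same pools and scaling as the medians above and are not independent of them. In normalized counts, the limit of 50 counts stood higher in control replicates 2 to 4 than in any lycopene pool. The background genes did not have to meet this limit, so these shares alone cannot set the 119 genes apart. The part of the limit in them was not tested.

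ENSBTAG00000006656, at rank 91, had the lowest log2 fold change of the 119 genes and was the gene that DESeq2 called. Its counts were 300, 420, 369 and 362 in control replicates 1 to 4 and 110, 67, 526 and 164 in lycopene replicates 1 to 4. Lycopene replicate 3 had the highest count and is also the deepest pool. As a share of the pool's counts, ENSBTAG00000006656 took 0.0681% ± 0.0357 (SD, n = 4) in control and 0.0110% ± 0.0044 in lycopene, 6.19-fold lower in lycopene by the means. The groups did not overlap, but control replicate 1, at 0.0191%, lay close to the highest lycopene pool, replicate 3 at 0.0159%, and far below the other control pools. Its log2 fold change was -3.25 (standard error 1.46, adjusted p = 0.784) with limma and -3.73 (standard error 1.15, adjusted p = 0.019) with DESeq2. With edgeR it was -2.49 (adjusted p = 0.294). The direction was the same in every alternative run, from -4.81 to -2.45.

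ENSBTAG00000005664, at rank 32, had the highest log2 fold change with the authors' size factors. Its counts were 532, 607, 342 and 273 in control replicates 1 to 4 and 2415, 3998, 10283 and 4018 in lycopene replicates 1 to 4. Every lycopene pool thus lay above every control pool in counts, including control replicate 1, which is deeper than lycopene replicates 1 and 2. As a share of the pool's counts it was 0.0732% ± 0.0346 (SD, n = 4) in control and 0.290% ± 0.0346 in lycopene, 3.96-fold higher by the means. In normalized counts the groups of ENSBTAG00000005664 overlapped, since control replicate 2 had 1656 and lycopene replicate 3 had 1564. The log2 fold change was 1.34 (standard error 0.91, adjusted p = 0.784) with limma and 2.14 with size factors from the 119 genes (adjusted p = 0.742), and it was -0.23 with equal upper quartiles. Without control replicate 1 it was 0.66, below the 1.33 of ENSBTAG00000000132 in the same fit, so its place as the highest rested on that pool.

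ENSBTAG00000000132, at rank 80, had the second highest log2 fold change. Its counts were 1647, 63, 125 and 156 in control replicates 1 to 4 and 1498, 1645, 3523 and 1808 in lycopene replicates 1 to 4. Control replicate 1 alone among the control pools reached the range of the lycopene pools. The share of counts of ENSBTAG00000000132 was 0.0462% ± 0.0413 (SD, n = 4) in control and 0.131% ± 0.0286 in lycopene. The groups were narrowly apart, with 0.105% in control replicate 1 and 0.107% in lycopene replicate 3. Its log2 fold change was 1.15 (standard error 1.13, adjusted p = 0.784) with limma, 1.95 with size factors from the 119 genes and -0.42 with equal upper quartiles. Without control replicate 2 it was 0.66.

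Among themselves the genes kept their order only in part. With size factors from the 119 genes, the SD of log2(count + 1) over the 8 pools was 0.81 at the median gene and ran from 0.15 to 1.86, where counting error alone would give 0.065 at the median gene. The highest pool exceeded the lowest by 5.54-fold at the median gene and by up to 45.2-fold. The gene with this widest range, at rank 106, had 382 counts in the shallowest pool, control replicate 4, and 59 in the deepest, lycopene replicate 3. The gene at rank 17 had 6729, 1330, 1865 and 53 counts in control replicates 1 to 4 and 3365, 2527, 11589 and 3947 in lycopene replicates 1 to 4, so a single low pool placed it far from its usual level. The SD did not fall steadily with the level: its median was 0.73 for ranks 1 to 40, 0.92 for the next 39 genes and 0.80 for the 40 lowest.

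The lycopene pools were more alike than the control pools over the 119 genes. Pearson's r between pools across these genes, on log2(count + 1) with size factors from the 119 genes, was 0.78 to 0.87 for the 6 lycopene pairs, 0.64 to 0.74 for the 6 control pairs and 0.61 to 0.81 for the 16 pairs of unlike groups. Spearman's rho was 0.72 to 0.83, 0.48 to 0.66 and 0.49 to 0.74. Without ranks 1 and 2, Pearson's r was 0.70 to 0.83 within lycopene and 0.50 to 0.65 within control. The median SD of a gene within its group was 0.85 in control and 0.53 in lycopene, and 73 of the 119 genes varied more in control. With the authors' size factors the medians were 1.14 and 0.70, and 93 of the 119 varied more in control. The share of all tested genes that did so was not counted. Genes are not independent replicates, and these values are a description. The control pools also had fewer counts, and the pair of unlike groups with the highest r, 0.81, joined the deepest control pool to the deepest lycopene pool. The part of depth in this difference was not tested.

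**Figure D4:**
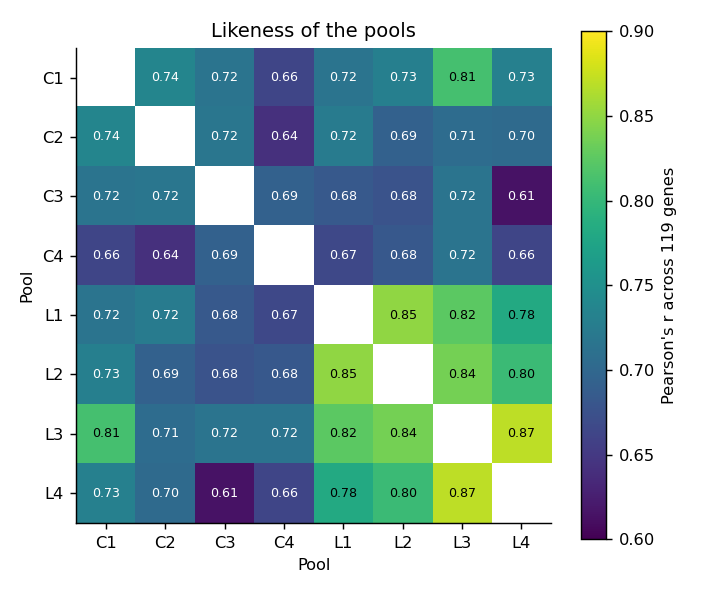
Pearson's r across the 119 genes, on log2(count + 1) with size factors from these genes, for each pair of control (C) and lycopene (L) pools. The 6 pairs of lycopene pools lie between 0.78 and 0.87 and the 6 pairs of control pools between 0.64 and 0.74.

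A few pairs of genes departed from this scatter, with counts in nearly the same proportion in every pool. For each of the 7021 pairs of genes, the chi-square statistic of their counts over the 8 pools was divided by its degrees of freedom, so that 1 is what counting error alone gives. The median pair had 224. Only 13 pairs, among 13 genes, had 2 or less, a limit chosen after the values were seen. All 6 pairs among the genes at ranks 115, 117, 118 and 119 had between 0.28 and 0.56. The genes at ranks 117, 118 and 119 had almost the same counts in each pool. Rank 117 had 160, 64, 51 and 53 in control replicates 1 to 4 and 99, 122, 326 and 184 in lycopene replicates 1 to 4. Rank 119 had 138, 56, 50 and 53 and then 94, 110, 338 and 182. Rank 115 ran parallel to them, at 1.57 times rank 119 in summed counts and between 1.45 and 1.73 times in single pools.

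The gene at rank 7 came close to the proportions of these genes at a far higher level. It had 5625, 2491, 2288 and 1934 counts in control replicates 1 to 4 and 3330, 5180, 13296 and 7564 in lycopene replicates 1 to 4, which was 40.9 times rank 119 in summed counts and between 35.4 and 47.1 times in single pools. It was within the limit with ranks 117, 118 and 119 but not with rank 115, and against the summed counts of the 4 genes it had 4.97, above the limit. Other pairs joined ranks 23 and 58 at a ratio of summed counts of 2.12, ranks 97 and 101 at 1.02, and ranks 104 and 110 at 1.41. Ranks 112 and 116, the pair nearest the limit at 1.96, had a ratio of summed counts of 1.19 but ratios from 0.864 to 1.81 in single pools, so that the higher of both genes changed between pools. RSEM can divide reads that map to several near-identical genes among them. Whether these genes share sequence, and whether their counts are shared in this way, was not tested.

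**Figure D5:**
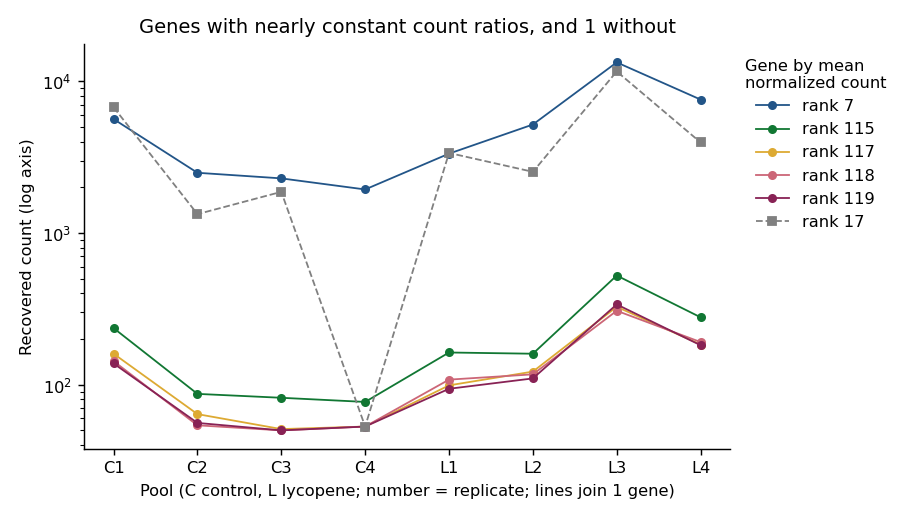
Recovered counts (log axis) of the genes at ranks 7, 115, 117, 118 and 119 in the control (C) and lycopene (L) pools, with the gene at rank 17 (grey squares, dashed) for comparison. The lines of ranks 115, 117, 118 and 119 run parallel within counting error and that of rank 7 runs close to parallel, while rank 17 falls to 53 counts in control replicate 4.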

How the data were processed

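RNA was measured in 8 pools, 4 per group, and each pool's group and replicate number come from its title. The authors trimmed the reads with Trim Galore 0.6.6, mapped them to ARS-UCD1.2 with STAR 2.7.9a, processed UMIs with UMI-tools 1.1.1, counted with RSEM 1.3.1 and normalized by the DESeq2 median ratio method. The deposited signal is this normalized count per gene and pool. Whole counts were recovered by dividing each pool's values by its smallest positive value, and 100% of the values were whole within a tolerance of 1e-06. The sources used here do not say whether they are reads or UMIs. If they are reads, intervals and the counting error are too narrow for molecules.

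limma 3.58.1 (eBayes with trend, R 4.3.3) was run on log2(normalized count + 1) without a block, over genes with a mean of at least 1. edgeR 4.0.16 and DESeq2 1.42.0 (independent filtering target 0.05) served as alternatives on the recovered counts, and scripts were tested on simulated counts. A size factor from the 119 genes is the median ratio of a pool's counts to the gene's geometric mean. Other alternatives were pseudocounts of 0.1 and 5, other filters and scalings, other variance models, each pool left out, the replicate block, and limits of 25 and 100 counts.

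The genes, lists and tests were chosen with earlier results of these data known. An exact test planned for the share of counts is not given for this reason. Genes were to be named from the top of the lists of highest level, highest and lowest log2 fold change and smallest and largest SD. Without symbols this was limited to 2 higher and 2 lower identifiers. Gene lists and cell type markers written by symbol were not analysed here.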

Additional observations from a re-analysis of the deposited data

Results flagged for a closer look

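Outlying pools were looked for with Dixon's ratio (95% level) in 18 groups of 4 pools, for 5 measures of the well counted genes and for the 4 genes named above, and chance alone would single out about 0.9 of these. It singled out 3 values, all of control replicate 1, so they are not independent. The share of the 2 highest genes was 20.5% in control replicate 1, below the other control pools (gap over range 0.832). The median count of the well counted genes was 1357 there, above the other control pools (0.863). The log2(normalized count + 1) of ENSBTAG00000005664 was 7.83 there, below the other control pools (0.900). Control replicate 1 was also the deepest control pool, with 1570448 total counts against 349465 to 536257 in the others. The authors' size factor was 2.35 there, against 0.183 to 0.367. As a share of the pool's counts, ENSBTAG00000005664 took 0.0339% there and 0.0638% to 0.117% in the other control pools. The part of depth and scaling in the flagged values was not tested.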

How the results depend on the processing

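limma called 0 of the well counted genes, and this count was 0 to 1 when a pool was left out, with 1 (ENSBTAG00000043567) without control replicate 1 and 1, the same gene, without lycopene replicate 4. DESeq2 called 1, and the other 19 alternatives called 0. The median log2 fold change of -0.82 moved to -0.051 with equal totals, to -2.39 with equal upper quartiles and to -0.023 with size factors from these genes, and it reversed to 0.050 with edgeR. It ran from -1.25 to -0.60 when a pool was left out. The difference in the share of counts, 2.65 percentage points, reversed to -0.26 without the 5 genes of highest share and ran from 0.38 to 4.33 when a pool was left out. Of 84 values for the 4 named genes, 78 kept their direction and side of the threshold. This takes no account of size, and limma with all pools called none of the 4. Among the 78, ENSBTAG00000043567 had -0.096 with size factors from the well counted genes and -2.47 with equal upper quartiles. The reversals were 0.13 for ENSBTAG00000043567 with edgeR and, with equal upper quartiles, -0.23 for ENSBTAG00000005664 and -0.42 for ENSBTAG00000000132. The cause of these changes was not tested. A replicate block in limma and in DESeq2 left 0 of these genes called, with medians of -0.82 and -0.84. Deviations of same-numbered pools from their group means correlated at -0.0051 to 0.0026 over all tested genes, against -0.010 to 0.015 for unlike numbers. Over the well counted genes, with size factors from them, the correlations were -0.18 to 0.057, against -0.23 to 0.21. Only 1461 of the tested genes had a count in every pool, and each group had 4 pools. These values cannot decide whether the numbers pair the pools.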

Other observations

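The nearly constant proportion among the genes at ranks 115, 117, 118 and 119 was also seen outside the well counted genes. Against the summed counts of these 4, each of 393 other genes, all with at least 5 counts per pool, was compared by the same chi-square statistic over its degrees of freedom. Of them 4 had 2 or less, and none of the 4 was a well counted gene. The lowest values were 0.15, for a gene with 26 to 188 counts in a pool, and 0.19, for a gene with 30 to 199 counts. They were chosen after their values were seen.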
